A study of Homo sapiens with 8 samples.

Results

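The positions described here are the single nucleotides that stood on exactly 2 rows of a list of YTHDF2 binding sites. Rows were joined by chromosome, position and strand, and 5565 of the 37613 distinct positions (14.8%) were found on 2 rows. The other 32048 positions (85.2%) stood on 1 row. The rows fall into a shorter and a longer part by their order in the list, and every position on 2 rows had 1 row in each. Positions on 1 row were therefore of 2 kinds, 28678 held by the longer part only and 3370 held by the shorter part only. The members were chosen by the authors' own calls, namely by a call at the same nucleotide in both parts, so their number is a description, and no label assigns either part to a treatment.

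YTHDF2 is a cytoplasmic reader of N6-methyladenosine (m6A), a methyl mark placed on adenosines of mRNA by the METTL3-METTL14 methyltransferase. Most m6A lies in a short consensus called DRACH, in which D is A, G or T, R is A or G, the methylated A is followed by C, and H is A, C or T. Bound YTHDF2 recruits the CCR4-NOT deadenylase and other decay factors, and many of its known targets encode regulators of transcription and cell growth.

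The study mapped YTHDF2 on RNA by iCLIP2 in wild-type HEK293T cells, an established human embryonic kidney line. In this assay proteins are joined to the RNA they touch by ultraviolet light, YTHDF2 is pulled down with its RNA, and cDNA synthesis ends where the protein was attached. There were 8 libraries, 4 from cells kept for 12 h in 0.2% DMSO and 4 from cells kept for 12 h with 20 µM STM2457, a METTL3 inhibitor, in the same amount of DMSO, and the ultraviolet dose was 150 mJ/cm2. The list carries 1 score per row and no value for any library, so the treatments could not be compared, the spread between replicates and the depth behind a position are unknown, and no source used here gives the scale of the score. All values below describe positions and genes, intervals are exact binomial 95% intervals (differences have 95% Newcombe intervals) that cover counting error only, and no p-value is given.

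The bases at the members could be read where they fell, with 10 flanking bases on both sides, inside the RefSeq windows around gene starts (GRCh38.p14). This small set of 26 members and 230 positions on 1 row lies near annotated starts and does not represent the others. The start is not always that of the gene that holds the position. For NUMA1, PCBP1, YEATS2 and MRPS34 below it is the start of another gene on the opposite strand. The following members are shown because they share 1 feature across a wide range of scores. Each is printed 5′ to 3′ on its own strand, centred on the listed position, with the 5 bases from 2 before to 2 after it in capitals and the score of the shorter part before that of the longer part.
NUMA1, a spindle-pole protein, chr11:72014150-72014170 (minus), scores 26.4 and 38.1: tgctggcaGGACAgagccaac
PCBP1, a poly(C)-binding protein, chr2:70088411-70088431 (plus), scores 71.7 and 24.5: cgattcaaGGACAacacacca
YEATS2, a histone reader, chr3:183810566-183810586 (plus), scores 4.32 and 4.32: ttgaatgaGGACCagtgagcg
MRPS34, a mitochondrial ribosomal protein, chr16:1772629-1772649 (minus), scores 12.8 and 10.3: cagaacttGGACCacgggaag
UAP1, an enzyme of UDP-N-acetylglucosamine synthesis, chr1:162561704-162561724 (plus), scores 5.56 and 11.7: cgagcgcgGGACGccgatgag
ATP5PF, a subunit of ATP synthase, chr21:25735188-25735208 (minus), scores 2.80 and 64.8: gggagcttGAACTaggggaaa
DPH7, an enzyme of diphthamide synthesis, chr9:137578619-137578639 (minus), scores 7.20 and 5.23: ggcccccaGAACAaggtgcgc
DLX1, a homeobox factor, chr2:172085527-172085547 (plus), scores 8.05 and 2.60: tttcaaagAGACAaactccat
RC3H1, the RNA-decay factor Roquin-1, chr1:173993063-173993083 (minus), scores 3.35 and 1.98: aaaaagatAAACTttttttca
RANBP6, an importin-related protein, chr9:6015607-6015627 (minus), scores 5.25 and 5.97: ggtagcttTGACAgagcgcaa

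In all 26 members the listed base was A and the next base C, and the 2 bases before them fitted DRAC, the first 4 letters of the consensus. The same was true of all 230 positions on 1 row. Of all bases in the windows, read on both strands, 1.84% are the A of a DRAC, and of all A 8.67% are. The rule used no sequence, but the motif did not set the members apart, since every readable position of either kind carried it. With the last letter added, 23 of 26 members (88.5%) and 195 of 230 positions on 1 row (84.8%) fitted DRACH, and UAP1 above is a member that ended in G. The members carried 10 different pentamers, of which GAACT was found at 5 members and so was GGACA, while positions on 1 row carried 24. The core GGAC was read at 14 of 26 members (53.8%, interval 33.4 to 73.4) and 81 of 230 positions on 1 row (35.2%, 29.1 to 41.8), and these intervals overlap. No source used here says whether a listed position is the crosslinked nucleotide or an adenosine assigned to it.

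A further 2 members and 5 positions on 1 row lay within the genomic extent of RefSeq microRNA hairpins. One member was at position 231019921 of chromosome 1, in MIR1182 inside FAM89A, and read GGACU. The other was at position 151238429 of chromosome 7, in MIR671 inside CHPF2, a chondroitin-polymerizing enzyme, and read GAACU. Whether the hairpin or the host transcript was bound cannot be told apart in these data.

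The members' scores were higher in the longer part than in the shorter part, as were those of positions on 1 row (medians of 8.18 for the longer part only and 3.93 for the shorter part only). The row of the longer part had a median score of 16.3 (quartiles 6.70 and 38.1), and the row of the shorter part had a median of 6.997 (2.96 and 14.9). Positions on 1 row of either part had a median of 7.43, which lies below the 19.5 of the members' higher score and above the 5.30 of their lower score. The longer part gave the higher score at 3897 members (70.0%, interval 68.8 to 71.2), the shorter part at 1600 (28.8%), and the scores were equal at 68. The median ratio of the longer to the shorter part's score was 2.29, with quartiles of 0.844 and 6.40. The scores were within 2-fold of each other at 1766 members (31.7%) and at least 10-fold apart at 1118 (20.1%), of which 976 were higher in the longer part and 142 in the shorter part. Beside the 68 equal pairs, a further 82 members had scores within 1% of each other. The equal pairs took 67 distinct values, from 0.0249 to 708, in 66 genes. FAT1, an atypical cadherin, had an equal pair at 5.78 and a nearly equal one at 8.91, and the telomere and replication-timing factor RIF1 had an equal pair at 4.35.

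**Figure D1:**
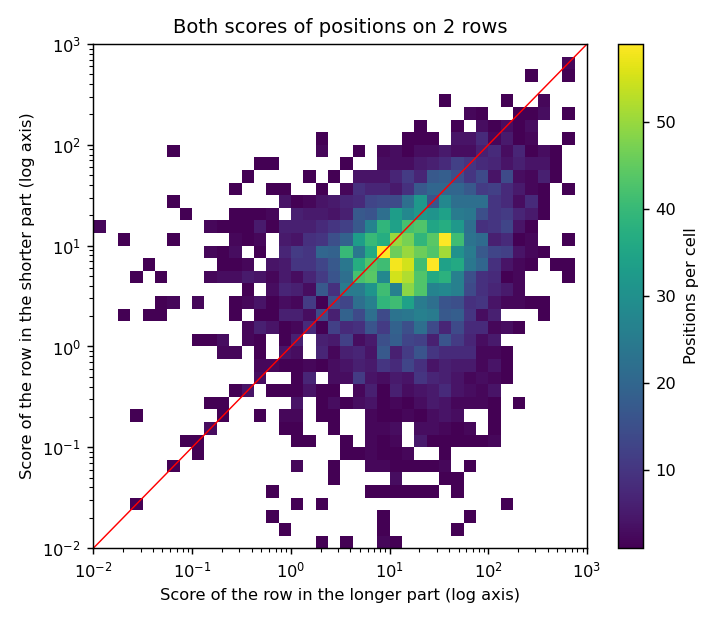
Scores of the 5565 positions on 2 rows, with the longer part's score on the horizontal and the shorter part's on the vertical log axis, in the list's own unstated unit; colour gives the number of positions per cell, the line marks equal scores, and 6 positions with a score under 0.01 are drawn in the edge cells. Most positions lie below the line, 3897 against 1600 above it, and the cloud is broad.

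The members with the highest lower score were led by cytoskeletal genes. ACTB, cytoplasmic beta-actin, had the list's highest score of 708 on both rows at position 5527743 of chromosome 7, which was 595 nt before the gene's 3′ end. ACTG1, gamma-actin, had the same score on both rows at 81510685 of chromosome 17. The beta-tubulin gene TUBB4B scored 535 in the shorter part and 650 in the longer at 137242712 of chromosome 9, and TUBB 295 and 332 at 30724273 of chromosome 6. The remaining members of this group of 10 encode proteins of varied roles. ZNF768, a zinc finger protein, scored 271 and 397 at 30525753 of chromosome 16. HSPA8, a constitutive HSP70 chaperone, scored 471 and 247 at 123059838 of chromosome 11 and was the only member of the 10 with the higher score in the shorter part. HUWE1, a ubiquitin ligase, scored 229 and 342 at 53548092 of chromosome X. The initiation scaffold EIF4G1 scored 228 and 391 at 184321790 of chromosome 3, SERBP1, an mRNA-binding ribosome partner, 211 and 680 at 67415238 of chromosome 1, and RAB5IF 204 and 358 at 36612225 of chromosome 20. Actins and tubulins have close copies, and no source used here says how reads were shared between them.

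At other members a high score in 1 part stood beside a score near the bottom of the other. HCFC1, a transcriptional coregulator, scored 0.0241 in the shorter part and 138 in the longer at 153954719 of chromosome X. Pairs of the same kind were found in TIMM8A, a mitochondrial import chaperone (0.266 and 208), RIF1 (0.109 and 120), the SMN-complex protein GEMIN5 (0.118 and 113) and the chromatin assembly factor CHAF1A (0.174 and 124). In the opposite direction, PDZD8, an endoplasmic reticulum tether protein, scored 92.5 in the shorter part and 0.0611 in the longer at 117283543 of chromosome 10. VIM, the intermediate filament vimentin, scored 67.5 and 0.508, the ribosomal protein RPS24 68.5 and 0.665, C4orf46 44.8 and 0.346, and MOGS, a glucosidase of N-glycan trimming, 32.9 and 0.247. In VIM and PDZD8, the other members given here did not share the contrast. In VIM the second member, 39 nt from its nearest listed neighbour, scored 60.4 and 139, and PDZD8 had members at 20.1 and 118 and at 48.7 and 103. In CHAF1A the second member did, at 0.263 and 119, 40 nt from the first. In HCFC1 another member had a weaker contrast in the same direction, at 1.36 and 117. HCFC1 and PDZD8 have 5 members each, and not all of them are given here.

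Each part is made of runs, stretches in which rows follow genome order before it starts again. The share of members differed between the runs of a part. On each strand the list had 4 runs, the first 2 in the shorter part and the last 2 in the longer part. Members were 64.0% of the 7326 rows of run 1 (interval 62.9 to 65.1) and 54.4% of the 1609 rows of run 2 (52.0 to 56.9). They were 16.9% of the 30821 rows of run 3 (16.5 to 17.3) and 10.7% of the 3422 rows of run 4 (9.65 to 11.7). Every member has 1 row in each part, so the gap between the parts is set by their sizes. Members were 62.3% of all rows of the shorter part and 16.3% of those of the longer part. Only runs of the same part can be compared. Most members, 4523 (81.3%), had rows in runs 1 and 3, 677 in runs 2 and 3, 166 in runs 1 and 4, and 199 in runs 2 and 4. The direction of the score pair differed with the runs: the longer part was higher at 81.5% of the members in runs 2 and 3 and at 42.2% of those in runs 1 and 4. Rows of run 4 had lower scores in general, with a median of 3.60 against 10.1 in run 3. No source used here says what the runs stand for.

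Members were more frequent among high-scoring rows of either part. In the shorter part, members were 51.1% of the decile of rows with the lowest scores, 49.7% of the next but one, and 89.3% (interval 87.0 to 91.2) of the decile with the highest. In the longer part the share went from 9.23% (8.28 to 10.2) in the lowest decile to 30.1% (28.5 to 31.6) in the highest. The same calls made the rows and the scores, so this is a description and not independent of the rule. The pattern was also seen within genes that held both kinds of position. In the longer part the median percentile rank of members was above that of positions on 1 row in 2035 of 2997 such genes (67.9%), by a median of 13.0 percentile points. In the shorter part it was above in 877 of 1297 genes (67.6%), by a median of 13.8 points. In the highest decile of both parts were 350 members. These are 43.9% of the 798 members in that decile of the shorter part, where 18.5% of all members were in that of the longer part, and 34.0% of the 1030 in that of the longer part, where 14.3% of all members were in that of the shorter part. In the lowest decile of both were 60 members, 13.1% of those in that decile of the shorter part and 18.99% of those in that of the longer part, against 5.68% and 8.21% of all members.

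**Figure D2:**
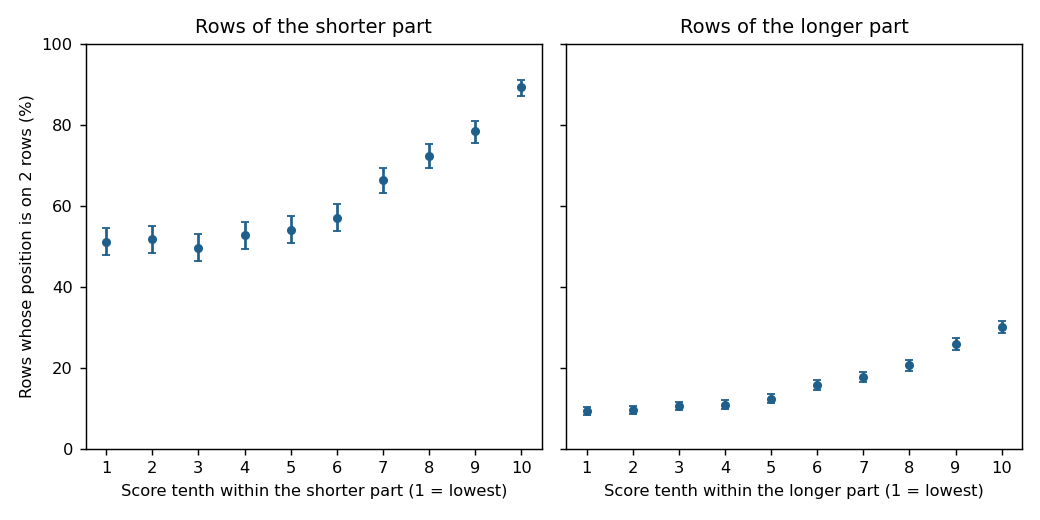
Share of rows whose position is on 2 rows, in percent, by decile of score within the shorter part (left) and the longer part (right); points are shares and bars exact binomial 95% intervals. The share is near 51.1% in the lowest and 89.3% in the highest decile of the shorter part, and 9.23% and 30.1% in the longer part.

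Members were placed in genes by strand and by the RefSeq gene extents, which include introns. A single gene was found for 5443 members (97.8%), against 97.9% of all positions. Of the rest, 99 lay in several genes or in a gene of unknown strand, 2 on the opposite strand of a gene and 21 outside the genes of the table. Exons, coding sequences and untranslated regions were not used here. Along genes, members lay towards the 3′ end as other positions did. In genes of at least 10 kb the median member lay 84.7% of the way from the 5′ to the 3′ end, the median position on 1 row 86.6%. The last 1 kb held 550 of 4365 members (12.6%, interval 11.6 to 13.6) and 13.1% of the 26412 positions on 1 row, a difference of -0.485 percentage points (-1.52 to 0.609) that includes 0. The first 1 kb held 159 members (3.64%) and 3.20% of positions on 1 row, a difference of 0.443 points (-0.118 to 1.08) that includes 0 as well. In genes of any length the difference in the last 1 kb was 0.784 points (-0.286 to 1.89). For the first 1 kb the reading changed with the setting, since the interval excluded 0 in genes of any length (1.40 points, 0.729 to 2.13) and with a window of 2 kb (0.867 points, 0.159 to 1.64).

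In the first 1 kb of genes, the 2 kinds of position on 1 row differed from the members in opposite directions. Against positions held by the longer part only, members were more often in the first 1 kb, by 0.711 points (0.149 to 1.34), and the interval for the last 1 kb included 0. Against positions held by the shorter part only, members were less often in the first 1 kb (3.64% against 5.52%, a difference of -1.87 points, -2.93 to -0.880) and more often in the last 1 kb (12.6% against 10.4%, 2.19 points, 0.656 to 3.68). At the 5′ end itself, the first 100 nt held 6 of 4365 members (0.137%, interval 0.0505 to 0.299), 65 positions of the longer part only (0.275%) and 23 of the shorter part only (0.840%). Positions in 1 gene are not independent, and intervals that treat them so are too narrow. In 2419 genes of at least 10 kb that held members and positions on 1 row of either part, differences within genes were averaged. The mean was -1.08 points in the last 1 kb and -0.0340 points in the first 1 kb. Against both kinds together, a higher share of members in the first 1 kb was thus not seen within genes. Means within genes were not computed against the longer part only, for genes of any length or for the 2 kb window. The share in the last 1 kb was higher for members in 261 of these genes, lower in 523 and equal in 1635. That in the first 1 kb was higher in 109, lower in 205 and equal in 2105. Most genes with a member had just 1, so the members' share is often all or none, and these counts give no direction.

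**Figure D3:**
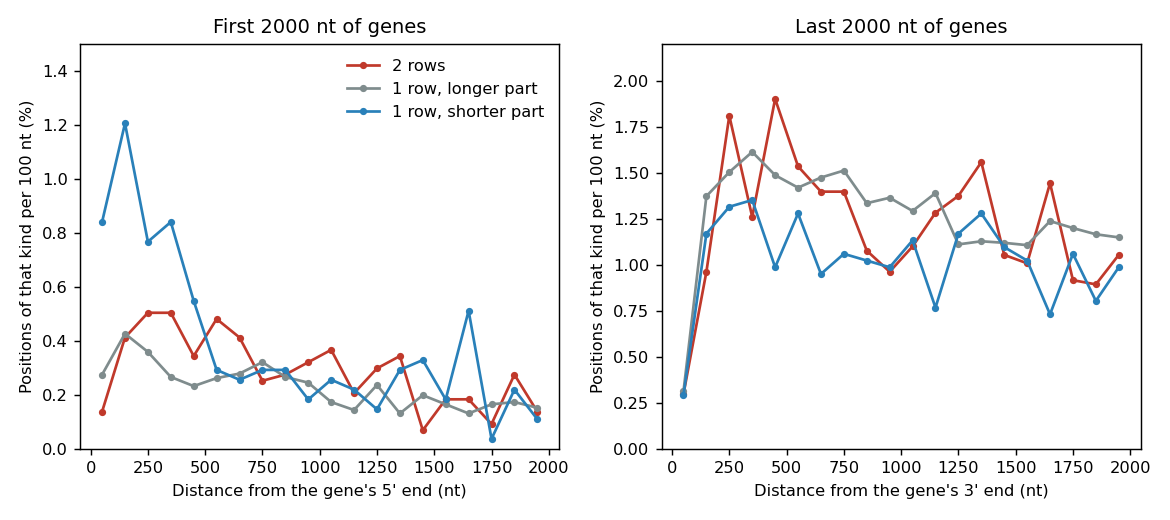
Share of positions of each kind per 100 nt, in percent, by distance in nt from the 5′ end (left) and 3′ end (right) of genes of at least 10 kb, with different vertical scales; lines are positions on 2 rows (4365), on 1 row of the longer part (23675) and on 1 row of the shorter part (2737). In the first 100 nt the members are at 0.137% and the shorter part alone at 0.840%.

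Members had listed neighbours within 100 nt and 500 nt more often than other positions, and at shorter range the difference was small and changed direction with the setting. Another position within 50 nt on the same strand was found for 1716 members (30.8%, interval 29.6 to 32.1) and 29.5% of positions on 1 row, a difference of 1.37 percentage points (0.0669 to 2.69). Against positions of the longer part only the interval included 0 (0.722 points, -0.591 to 2.06), and the mean difference within genes was 0.218 points. The difference was -0.375 points within 20 nt, and -1.43 at 50 nt against longer-part positions weighted to the members' deciles of score. Within 100 nt the shares were 53.1% and 48.8%, and within 500 nt 85.9% and 79.0%. At these 2 distances they were 49.8% and 80.5% for the longer part only, and 39.8% and 66.4% for the shorter part only. Weighting by score and means within genes were not computed at 100 and 500 nt. The nearest neighbour was a median of 92 nt from a member and 105 nt from a position on 1 row. The nearest neighbours of members were no richer in members than those of other positions. Where the nearest neighbour lay within 50 nt, it was itself a member for 253 of 1716 members (14.7%) and 1428 of 9444 positions on 1 row (15.1%), a difference of -0.377 points (-2.14 to 1.52). Chains of members at most 50 nt apart, with no other listed position between them, held at most 2. There were 134 such pairs, and 5297 members were in no such chain. The smallest distance between listed positions was 4 nt, found for 310 positions including 24 members, and 4 nt is also the smallest distance at which the adenosines of a pair of DRAC motifs can lie.

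Members were spread thinly over many genes. Of 7630 genes with a position, 3257 (42.7%) had a member, and 2003 of these (61.5%) had just 1. A pair was found in 747 genes and 3 or more in 507, and the 95 genes with 5 or more held 584 members (10.7%). The share of a gene's positions that were members was higher in genes with more positions, from 190 of 1685 (11.3%, interval 9.80 to 12.9) in genes with a single position to 536 of 3242 (16.5%, 15.3 to 17.9) in genes with 20 or more. In no gene with 5 or more positions were all of them members. Among rows at or above the list's median score, 1946 of 19643 positions (9.91%) were on 2 rows, in 1499 genes. This share is below the 14.8% of the full list, and here both rows of a member had to pass the cut. By chromosome the share ran from 12.6% on chromosome 6 to 17.2% on chromosome 22.

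**Figure D4:**
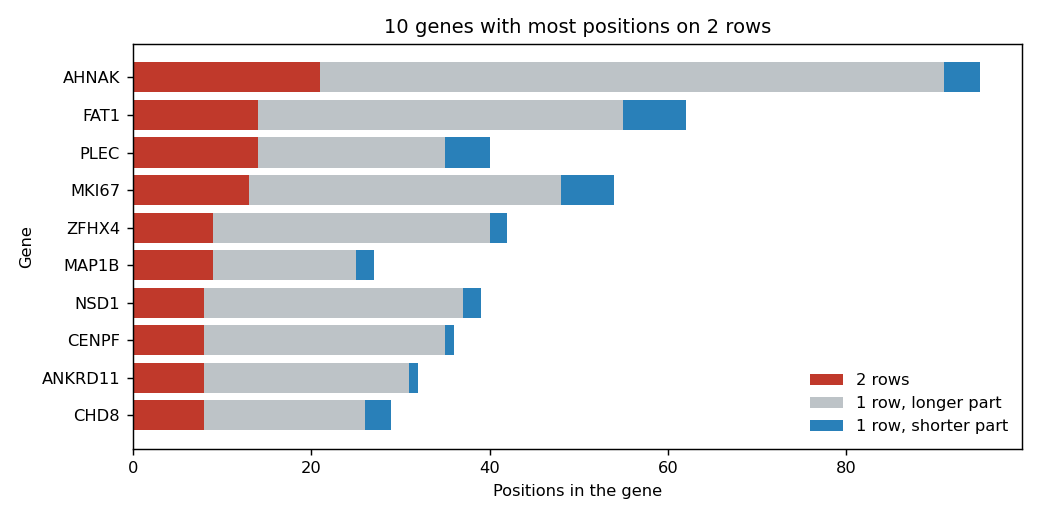
Number of listed positions in 10 genes with the most positions on 2 rows (the last 4 taken from 9 genes tied at 8 members by their number of positions, then by symbol), split into those on 2 rows, those on 1 row of the longer part and those on 1 row of the shorter part. AHNAK has 21 of 95 positions on 2 rows and CHD8 8 of 29.

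AHNAK, a giant scaffold protein, had 21 of its 95 positions on 2 rows, between 62517515 and 62533581 of chromosome 11, with median scores of 5.08 (shorter part) and 10.2 (longer part). The longer part was higher at 12 of the 21 AHNAK members, against 70.0% of all members. Its highest score in the shorter part, 40.8 at 62529777, stood beside 23.6, and its highest in the longer part, 68.6 at 62518327, beside 22.0. FAT1 had 14 of 62, over 121 kb of chromosome 4. The member at 186709677, nearest to the 5′ end of the gene, had the highest score of FAT1 in both parts, 25.2 and 252. The next members downstream, at 186709397 and 186709030, scored 11.9 and 76.7, and 15.9 and 36.1.

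PLEC, the cytoskeletal linker plectin, had 14 of 40 positions on 2 rows, all within 5.86 kb. Its longer part was higher at only 7 of 14, and the medians were 9.37 in the shorter part and 7.39 in the longer. MKI67 encodes the chromosome-surface protein Ki-67 of dividing cells. In MKI67 the longer part was higher at 11 of 13 members, against 70.0% of all members, with medians of 7.79 and 28.0. MKI67 had 54 positions in all. The MKI67 members nearest to the 3′ end, at 128098602 and 128099031 of chromosome 10, scored 38.6 and 210, and 14.2 and 125, and that nearest to the 5′ end, at 128115461, scored 7.79 and 184. An MKI67 member at 128104564 went the other way, with 26.1 in the shorter part and 5.75 in the longer.

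MAP1B, a microtubule-associated protein of neurons, had 9 of 27 positions on 2 rows, with medians of 6.39 and 9.66, and the homeobox factor ZFHX4 had 9 of 42, with 6.39 and 14.6. Another 9 genes tied at 8 members each, of which the 4 with the most positions (then by symbol) are described next. EP300 and PPRC1 below are also in this tie. CENPF, a kinetochore protein, had 8 of 36, with medians of 5.79 in the shorter part and 45.0 in the longer and the longer part higher at 7 of 8. At 214645698 of chromosome 1 CENPF scored 2.05 and 133, and at 214645383, its only member with the shorter part higher, 36.2 and 5.92. NSD1, a histone H3 lysine methyltransferase, had 8 of 39, and its member at 177211840 of chromosome 5 scored 53.1 and 326. ANKRD11, a chromatin regulator, had 8 of 32, with the longer part higher at 4, and the medians of 12.3 and 13.7 were close. CHD8, a chromatin remodeller, had 8 of 29, of which 4 lay within 1 kb of its 3′ end, and a pair only 4 nt apart, at 21393958 and 21393962 of chromosome 14, scored 19.9 and 64.4, and 1.96 and 65.6.

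The share of positions on 2 rows varied between genes with 10 or more positions. Over 954 such genes the median share was 14.5% (quartiles 8.33 and 21.4), 112 had no member and 6 had members at 50% or more of their positions. The highest share was 60.0%, in DIPK1B, a kinase-like protein, with 6 of 10 positions between 136723035 and 136723962 of chromosome 9. DIPK1B scored 23.6 and 25.5 at the first of these and 22.7 and 24.9 at the last. PPRC1, a PGC-1-related coactivator of mitochondrial genes, had 8 of 14 (57.1%), with medians of 2.38 and 13.7. The longer part was higher at all 8 members of PPRC1, against 70.0% of all members. ARMC7 had 6 of 11 (54.5%) within a stretch from 75128938 to 75129359 of chromosome 17. The homeobox factor PITX1 and SLC7A6, an amino-acid transporter subunit, each had 5 of 10. At the other extreme, the Mediator kinase-module subunit MED13 had 0 members among 25 positions, ZBED4 0 of 23, and the transcription factor IIIC subunit GTF3C4, the ubiquitin ligase MYCBP2 and RAI1, a transcriptional regulator, 0 of 19 each. With so few positions per gene these shares are imprecise.

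Gene groups were set beside the share over all genes, 5443 of 36821 positions (14.8%). Counts of members with the longer part higher stand beside the 70.0% found over all members. The m6A machinery was close to it. The methyltransferase subunits and demethylases had 18 of 115 positions on 2 rows (15.7%, interval 9.55 to 23.6). The m6A eraser ALKBH5 had 3 of 11, at 34.5 and 21.9, 12.7 and 75.3, and 23.9 and 123, and RBM15B and ZC3H13, partners of the methyltransferase, had 3 of 23 and 3 of 14. The catalytic pair METTL3 and METTL14 had no member among 5 and 4 positions, a pair of genes singled out after their values were seen. The m6A readers had 13 of 61 (21.3%, 11.9 to 33.7). In the gene of YTHDF2 itself 3 of 13 positions were members, scoring 16.7 and 10.7 at 28737677 of chromosome 1, 133 and 25.5 at 28742540, and 40.6 and 159 at 28743593. YTHDF1 had 4 of 11 and YTHDF3 2 of 12.

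Factors of mRNA decay also held members. The CCR4-NOT deadenylase and its adaptors had 12 of 68 positions on 2 rows (17.6%, interval 9.47 to 28.8). The antiproliferative adaptor TOB2 had 4 of 9, with a nearly equal pair of 21.2 and 21.3 at 41437152 of chromosome 22 and one of 11.1 and 163 at 41437317. Its relative BTG1 had 3 of 5, of which the highest scored 34.7 and 218, and BTG2 had 2 of 3. Nonsense-mediated decay genes had 13 of 81 (16.0%), including SMG8, a partner of the SMG1 kinase, with 4 of 20. Decapping and 5′ to 3′ decay genes had 6 of 50 (12.0%, 4.53 to 24.3), 2 of them in the decapping enzyme DCP2. Stress granule components had 23 of 139 (16.5%), and ribosome collision factors 11 of 60 (18.3%). PRRC2A and PRRC2B, large RNA-binding proteins of stress granules, had 5 of 21 and 5 of 31.

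Among translation genes, initiation factors had 11 of 125 positions on 2 rows (8.80%, interval 4.48 to 15.2) and elongation factors 6 of 38 (15.8%, 6.02 to 31.3), and both intervals included 14.8%. EIF4G1 had 2 of 18 and the EIF3 subunit EIF3I 2 of 3. Cytosolic ribosomal protein genes had 29 of 130 (22.3%, 15.5 to 30.4) and mitochondrial ones 38 of 184 (20.7%, 15.0 to 27.2), and the lower bounds of both lay above 14.8%. The members' median longer-part scores were 16.0 and 47.0, against 16.2 for the members in all genes. The part of the score in these shares was not tested here either. RPS24 had 3 of 6, scoring 19.6 and 295 at 78035411 of chromosome 10, 68.5 and 0.665 at 78035570 and 248 and 149 at 78035711, so that neighbouring members differed in which row was higher. The mitochondrial MRPL27 had 2 of 5, with longer-part scores of 178 and 179.

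The highest share was that of cytoskeletal actins and tubulins, 21 of 46 positions (45.7%, interval 30.9 to 61.0), with a member in all 11 genes that had a position. TUBB4B had 4 of 8 and TUBB and TUBB6 3 of 9 each. TUBB4B scored 4.37 and 628, 535 and 650, 9.71 and 53.8, and 186 and 253, with the longer part higher at all 4. Histone genes followed with 15 of 42 (35.7%, 21.6 to 52.0). That list was drawn by symbol pattern and includes the replication-independent linker histone H1-10, with 3 of 5. The members of both lists had high scores, with median longer-part scores of 80.8 and 67.6 against 16.2 for the members in all genes. The part of the score in these shares was not tested.

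Immediate early genes had 15 of 63 (23.8%, interval 14.0 to 36.2). JUND, an AP-1 subunit, had 4 of 6, scoring 16.3 and 2.65, 3.49 and 29.5, 40.0 and 35.7, and 1.31 and 72.0, with no common direction. IER5, a stress-induced regulator of heat shock factor, had 4 of 9 with the longer part higher at just 1. In MYC, a growth-promoting transcription factor, 2 of 10 positions were members and the longer part was higher at both. Glycolytic enzymes had 6 of 33 (18.2%), nuclear-encoded respiratory chain genes 21 of 109 (19.3%) and HSP70 and HSP90 chaperones 11 of 84 (13.1%). These intervals all included 14.8%.

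Chromatin genes held many members and many positions. Histone lysine methyltransferases and demethylases had 58 of 426 (13.6%, interval 10.5 to 17.2), and NSD1, SETD2 and NSD2 led them with 8 of 39, 7 of 32 and 6 of 15. In NSD2, a histone H3 lysine methyltransferase, the longer part was higher at all 6. Chromatin remodellers had 47 of 257 (18.3%, 13.8 to 23.6), with CHD7 and BPTF at 6 members each. Coactivators and Mediator had 29 of 178 (16.3%), of which the longer part was higher at 25, against 70.0% of all members. The acetyltransferase EP300 had 8 of 23, with scores from 0.621 and 21.2 at 41178431 of chromosome 22 to 99.8 and 51.3 at 41177614, and its paralogue CREBBP had 4 of 20. Large mitotic proteins had 37 of 191 (19.4%, 14.0 to 25.7), and the longer part was higher at 32 of the 37. Many of these 37 came from 2 genes, 13 from MKI67 and 8 from CENPF. Giant cadherins had 18 of 107 (16.8%) with the longer part higher at 9 of 18.

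At the low end, genes with ZNF symbols, most of which encode zinc finger proteins, had 240 of 2062 positions on 2 rows (11.6%, interval 10.3 to 13.1), and the upper bound lay below 14.8%. The median longer-part score of these members was 12.0, against 16.2 for the members in all genes, and its part in the share was not tested. ZNF106 and ZNF148 had the most, with 6 of 20 and 6 of 18. Nuclear speckle and SR protein genes had 11 of 93 (11.8%, 6.05 to 20.2). SON, a speckle scaffold, had 6 of 41, of which the pair at 33554493 of chromosome 21 scored 7.71 and 410 and that at 33550881 scored 33.2 and 33.4. SRRM2, the other large speckle scaffold, had 2 of 29.

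**Figure D5:**
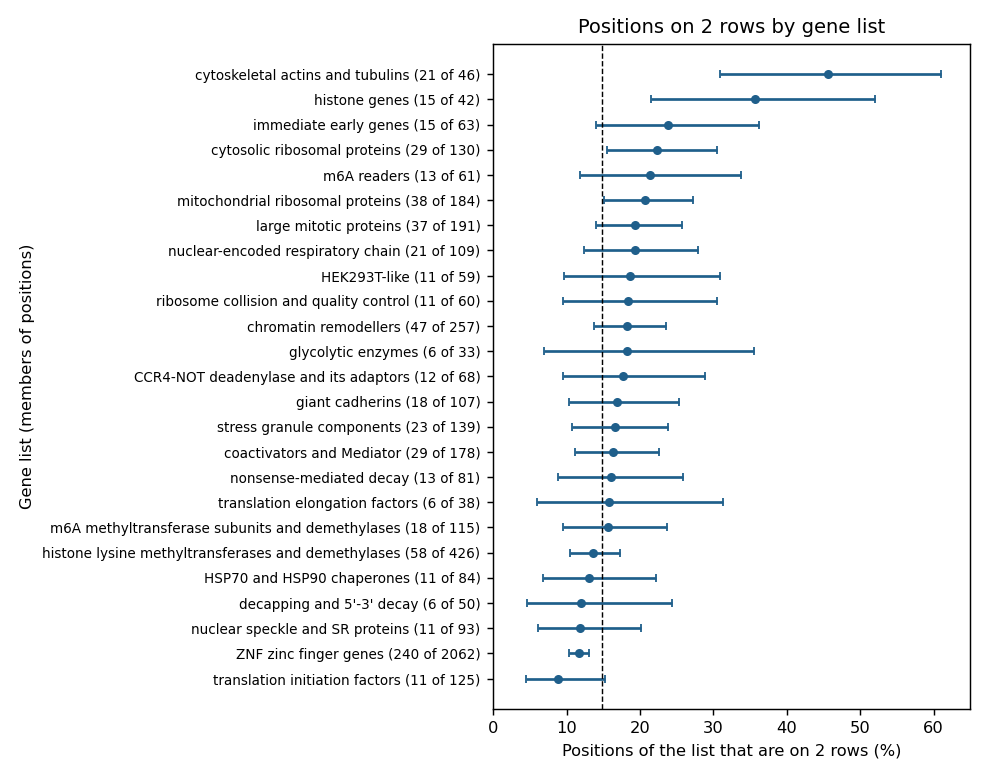
Share of listed positions that are on 2 rows, in percent, for each gene list with a position; points are shares, bars exact binomial 95% intervals, and the dashed line is the 14.8% over all genes. Actins and tubulins are highest at 45.7% and initiation factors lowest at 8.80%.

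The labelled cell type was checked by the same list of positions. Markers reported for HEK293T cells had 11 of 59 positions on 2 rows (18.6%) in 5 of 8 genes with a position, among them 4 of 15 in SALL2, 3 of 15 in SALL1, both developmental zinc finger factors, and 2 of 7 in VIM. Of 8 haematopoietic and 4 hepatocyte markers none had any listed position. A list of bound sites shows bound RNA, so a missing position is not a measure of expression.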

How the data were processed

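YTHDF2 iCLIP2 was deposited as 1 table for 8 libraries (4 DMSO, 4 STM2457, grouped by the treatment in each label), with 0 columns for single samples. The authors' deposited score, 1 per row, is a positive number of unstated scale. Tools named in the submitters' processing notes, without role or order, are bedtools 2.27.1, UMI-tools 1.0.0, STAR 2.7.3a and FastQC 0.11.8, with build GRCh38.p12. No source used here gives the site caller or says how replicates were combined.

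Rows were joined by chromosome, position and strand, and told apart by the part of the list, found from the 4 runs of sorted rows on each strand. Names and extents of 19961 genes came from a RefSeq table on GRCh38.p14, whose patches leave the main chromosomes unchanged. Strands of 15767 genes came from the RefSeq windows at gene starts (250 bases before to 50 after) and of 1223 from the majority of positions, and 95 readthrough genes were left out. Sequences are RefSeq's. Steps were tested on simulated data. Computation used Python 3.11.15 with pandas 2.3.3 and scipy 1.17.1.

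Genes and positions named are the 10 genes with most members, the 10 positions with the highest lower score, the 5 with the largest difference in percentile rank in each direction, the 5 genes with the highest and the 5 with the lowest share among those with 10 or more positions, and up to 3 genes from each of 27 lists. Not all of these are reported here. The members and lists were chosen with earlier results of these data known. The printed sequences and gene pairs marked as such were chosen after values were seen. The labels do not say if replicates came from separate cultures.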

Additional observations from a re-analysis of the deposited data

How the results depend on the processing

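No paired analysis was possible because the table has no column per library, and for the same reason no replicate could be left out. Of 34 results under alternatives, 19 were the same, 12 moved and 3 reversed, and the causes were not tested. A difference of shares counted as the same if it lay within the main interval. It counted as reversed only if that interval excluded 0 and the sign changed. Some changes of sign are therefore among the same, such as 0.0637 points in the last 1 kb with a window of 500 nt. So is the first 1 kb with a window of 2 kb, where the interval (0.159 to 1.64) excluded 0. With rows at or above the median score only, 1946 positions (9.91% of 19643) were on 2 rows, in 1499 genes, against 5565 (14.8%) in 3257. With 1 member per gene, the longer part was higher at 71.6% and Spearman's rho of the scores was 0.34 (against 70.0% and 0.25). The member kept in each gene was that with the highest sum of the percentile ranks of its 2 scores. This set was thus picked by the same scores that were compared, and is not a neutral check on dependence within genes. For members in the larger run of both parts rho was 0.28. The difference of median score from positions on 1 row was 12.1 by the higher score, 5.80 by the mean, -2.13 by the lower, 8.12 within the longer part and 3.06 within the shorter part. With genes of any length, the differences were 0.784 points in the last 1 kb (-0.485 in genes of 10 kb or more) and 1.40 in the first 1 kb (0.443), where the interval then excluded 0. The difference in neighbours, 1.37 points at 50 nt, was -0.375 at 20 nt, 4.36 at 100 nt, 6.93 at 500 nt and -1.43 against longer-part positions weighted to the members' deciles of score. The distance of 500 nt, the weighting, the larger runs, the means over genes and the score in the shorter part were chosen after seeing the data. Depth per position is unknown, so the precision of single scores is too.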

Other observations

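In AHNAK, whose protein is largely made of repeated units, 4 pairs of members lay 162 nt apart and 4 pairs 384 nt apart, and over all 95 positions 13 pairs lay 384 nt apart and 8 pairs 162 nt. Both distances are multiples of 3. They were looked for after the positions were seen, other recurring distances in the gene were not multiples of 3 (16 nt in 3 pairs, for example), and no test was made. The same search in MKI67 gave 2 pairs of members 366 nt apart. Over all MKI67 positions, 80, 279 and 630 nt had 3 pairs each, and 80 is not a multiple of 3.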
